A study of Homo sapiens with 8 samples.

Results

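The genes described here are 10 regulators of mitosis: the cyclins CCNA2, CCNB1 and CCNB2, the cyclin-dependent kinase CDK1, the Polo-like kinases PLK1 and PLK4, the Aurora kinases AURKA and AURKB, the anaphase activator CDC20 and the transcription factor FOXM1. They were taken by name, as every probe on the array that carries one of these gene symbols. All 10 were found among 36337 gene names, with 13 probes in all, because CCNB1, CDK1 and PLK1 have 2 probes each. In the text a gene with 2 probes is represented by its brighter probe unless the other is named.

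RNA of DLD1, an established human colorectal cancer cell line, was hybridised to 8 Agilent SurePrint G3 Human GE v2 microarrays with 1 dye. The cells were transfected transiently with a control siRNA (siCONT) or with siUHRF1-1 or siUHRF1-2, both directed at UHRF1. UHRF1 is a protein that reads methylated DNA and brings the maintenance methyltransferase DNMT1 to it. After 48 h the cells received trichostatin A at 300 nM (TSA), which inhibits histone deacetylases, or mock treatment with its solvent ethanol for another 24 h. This gave 4 groups of 2 arrays, the control (siCONT and mock), UHRF1 depletion alone, TSA alone (in siCONT cells) and the combination of UHRF1 depletion and TSA. In the groups with UHRF1 depletion the 2 arrays carry the 2 different siRNAs, so the spread there is a spread between siRNAs (n = 2). The comparisons ask how the expression of the mitotic genes differed after UHRF1 depletion alone, TSA alone and the combination.

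Cyclin A and cyclin B bind CDK1 and direct it to the substrates that drive cells from G2 phase into mitosis. Polo-like and Aurora kinases then build the spindle and attach chromosomes to it, and CDC20 activates the anaphase-promoting complex (APC/C), the ubiquitin ligase that destroys cyclin B and ends mitosis. FOXM1, with the MuvB proteins, switches on many of these genes late in the cell cycle, so their transcripts are abundant in dividing cells and scarce in resting ones.

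Every value below is a level or a difference of levels on the log2 scale. A level is the processed intensity of a probe over the 75th percentile of its array, so that 0 is the intensity of that percentile. Levels of different probes cannot be compared with each other, and only differences between arrays are read. The 2 siCONT arrays of an agent differed by only 1.16 (mock) and 1.08 (TSA) times what repeated spots on the same array predict, against 12.5 and 10.3 for the 2 siRNAs against UHRF1. The siCONT arrays may therefore be technical repeats, and no SD is given for them. Each result is also given from a fit that counts them as 1 sample (6 samples in all). In that fit the spread of a probe comes only from the differences between the 2 siRNAs against UHRF1. Across the arrays 43.3% to 48.0% of the 50599 probes were well above background. The mock arrays occupied the first slide row and the TSA arrays the second, so an effect of TSA and an effect of slide row cannot be told apart. In both rows the siCONT arrays lay in slide columns 1 and 2, siUHRF1-1 in column 3 and siUHRF1-2 in column 4. An effect of siRNA and an effect of slide column cannot be told apart either.

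Late cell cycle promoters are known for short letters that the MuvB complex and the factor NF-Y bind, namely the cell cycle homology region TTTGAA and the CCAAT box. The RefSeq promoter table (GRCh38.p14, 250 bases before to 50 after each start) held 8 of the 10 genes, without AURKA and FOXM1. On either strand CCAAT occurred in a window of all 8 genes, against 39.7% of the 27305 genes in the table. TTTGAA occurred for 5 of the 8 (CCNB2, CDK1, PLK1, PLK4 and CDC20), against 18.2% of all genes. CDK1 and AURKB have 2 windows and PLK4 has 3, and more windows give more chances of a match. Both sets of letters together were found for CCNB2, CDK1, PLK1 and CDC20, against 7.26% of all genes. These matches describe letters only. The stretches below, on the gene's own strand and upstream of its first listed start, show how the 2 motifs lie in these 4 promoters and, for comparison, in that of CCNB1, whose window holds CCAAT but not the exact letters TTTGAA. Capitals mark TTTGAA and CCAAT. Matches outside these stretches are not printed. For CDK1 they include TTTGAA at 69 and 13 bases before its second listed start. There CCAAT lies on the opposite strand, 78 and 46 bases before that start.
CCNB1, chr5:69167050-69167129, plus strand: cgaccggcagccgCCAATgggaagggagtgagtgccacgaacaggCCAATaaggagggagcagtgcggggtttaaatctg
CCNB2, chr15:59105046-59105125, plus strand: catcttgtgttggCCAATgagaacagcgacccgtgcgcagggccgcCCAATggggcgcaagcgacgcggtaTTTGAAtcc
CDC20, chr1:43358871-43358950, plus strand: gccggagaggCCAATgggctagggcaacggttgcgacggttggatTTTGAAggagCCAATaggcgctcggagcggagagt
PLK1, chr16:23678789-23678868, plus strand: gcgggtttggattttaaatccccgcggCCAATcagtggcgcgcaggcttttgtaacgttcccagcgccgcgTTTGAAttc
CDK1, chr10:60778151-60778200, plus strand: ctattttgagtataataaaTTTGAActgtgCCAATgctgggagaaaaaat

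The knockdown was checked on UHRF1 itself. Its brighter probe read 1.98 and 2.01 on the siCONT arrays with mock and 0.34 and -0.019 with siUHRF1-1 and siUHRF1-2. With TSA it read 1.04 and 1.01 in siCONT cells and -1.55 and -2.14 with the 2 siRNAs. UHRF1 was lower in every depleted array than in the siCONT arrays of the same agent. Depletion left 28.1% of the siCONT level under mock (limma, adjusted p = 0.0120) and 13.6% under TSA (adjusted p = 0.00234). The fit with siCONT as 1 sample gave adjusted p-values of 0.252 and 0.0535. TSA alone also left less UHRF1, 51.2% of the control (limma, adjusted p = 0.0175, and 0.279 with siCONT as 1 sample). The combination left 6.98% of the control (limma, adjusted p = 0.000154). UHRF1 was thus lower in depleted cells with TSA than in depleted cells with mock.

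In cells with UHRF1 depletion plus TSA all 10 mitotic genes were lower than in siCONT cells with mock. The decreases ran from 3.77-fold for PLK4 to 10.4-fold for CCNB1, with a median log2 change of -2.88. All 10 passed the test (limma, adjusted p under 0.05 and at least 2-fold), where 11.1% of all tested probes were called lower and 14.5% higher. The adjusted p-values lay between 0.000153 and 0.00235, and between 0.00781 and 0.0388 with the siCONT arrays as 1 sample, where again all 10 passed against 5.69% of all probes called lower. For each of the 10 genes both arrays of the combination lay below both siCONT arrays with mock, as they did for 46.5% of all tested probes. Of all calls in this comparison 56.8% were higher, and with each array scaled to its median this share was 31.6% and the median of all probes -0.54. In that scaling the median of the 10 genes was -3.28. These are levels in RNA of whole cultures, in which fewer cells in mitosis and less RNA per cell cannot be told apart.

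The mitotic cyclins are the subunits that turn CDK1 on. CCNA2, cyclin A2, read 3.02 and 3.09 in siCONT cells with mock, 2.72 (siUHRF1-1) and 1.67 (siUHRF1-2) after UHRF1 depletion, 1.88 and 1.93 with TSA, and -0.42 and -0.15 with UHRF1 depletion plus TSA. The combination was lowest, TSA alone and siUHRF1-2 alone lay between, and siUHRF1-1 alone lay nearest to the control. In the combination CCNA2 stood at 9.86% of the control level (log2 change -3.34 ± 0.33 SE, limma, adjusted p = 0.000672).

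CCNB1, cyclin B1, read 5.08 and 5.09 in the control, 4.89 and 4.43 after depletion, 3.53 and 3.53 with TSA, and 1.53 and 1.88 with both. Here TSA alone lay clearly below UHRF1 depletion alone, and no 2 groups overlapped. The combination left 9.63% of the control level (log2 change -3.38 ± 0.19 SE, limma, adjusted p = 0.000153). A second CCNB1 probe further along the transcript gave the same order, with 2.89 and 2.90, 2.62 and 2.42, 1.39 and 1.3, and -0.80 and -0.49 in the 4 groups. CCNB2, cyclin B2, read 6.04 and 5.95, 5.64 and 5.03, 4.65 and 4.66, and 3.18 and 3.26, and fell to 14.6% of the control (log2 change -2.78 ± 0.20 SE, limma, adjusted p = 0.000288).

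CDK1, the kinase of these cyclins, differed from them under TSA alone. Its brighter probe read 4.19 and 4.26 in the control, 4.02 and 3.13 after depletion, 3.95 and 3.96 with TSA, and 2.12 and 2.34 with both. The arrays with TSA alone were thus near the control, and a marked decrease was seen in the combination, to 25.1% of the control (log2 change -1.99 ± 0.28 SE, limma, adjusted p = 0.00235). The brighter probe, which spans 2 exons at chr10:62552004-62553650 (hg19, plus strand), is shown because the 2 CDK1 probes disagreed on TSA: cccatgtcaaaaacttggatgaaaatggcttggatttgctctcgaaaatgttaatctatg. It changed by -0.27 ± 0.28 SE with TSA in siCONT cells (limma, adjusted p = 0.471). The other probe, assigned on the array to another CDK1 transcript at chr10:62546632-62546691 (hg19), read -2.11 and -1.96 in the control and -2.89 and -3.20 with TSA, a change of -1.01 ± 0.26 SE (limma, adjusted p = 0.0263, and 0.287 with the siCONT arrays as 1 sample). With UHRF1 depletion plus TSA neither array read that probe well above background, so it was at least 2.85-fold lower than in the control.

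The Polo-like kinases act at centrosomes, kinetochores and the cleavage furrow (PLK1) and in centriole duplication (PLK4). PLK1 read 1.93 and 1.87 in the control, 1.41 and 0.82 after depletion, 0.85 and 0.94 with TSA, and -1.27 and -0.88 with both. siUHRF1-2 alone and TSA alone gave about the same level, and the combination lay far below, at 12.7% of the control (log2 change -2.98 ± 0.23 SE, limma, adjusted p = 0.000326). The 2 PLK1 probes lie in different exons of the coding sequence (hg19, plus strand) and both were lower in the combination, with log2 changes of -2.98 and -2.68, although the dimmer probe was not well above background with siUHRF1-1 and TSA.
PLK1 brighter probe, chr16:23700970-23701212: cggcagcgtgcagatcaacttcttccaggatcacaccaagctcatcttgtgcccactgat
PLK1 dimmer probe, chr16:23692251-23692310: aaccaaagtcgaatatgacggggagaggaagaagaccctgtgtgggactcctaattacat
PLK4 read -0.18 and -0.19 in the control, -0.32 and -0.98 after depletion, -0.50 and -0.29 with TSA, and -2.17 and -2.03 with both. Under either single treatment PLK4 stayed within 1 log2 unit of the control on every array, and the combination left 26.5% (log2 change -1.92 ± 0.23 SE, limma, adjusted p = 0.0013).

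The Aurora kinases mature centrosomes and the spindle (AURKA) and correct chromosome attachment and cytokinesis (AURKB). AURKA read 3.51 and 3.58 in the control, 3.18 and 2.19 after depletion, 2.73 and 2.75 with TSA, and 0.38 and 0.91 with both. The 2 siRNAs alone lay on either side of TSA alone, and the combination left 13.4% of the control (log2 change -2.90 ± 0.34 SE, limma, adjusted p = 0.00120). AURKB read 1.31 and 1.37, 1.32 and 0.49, -0.05 and -0.15, and -1.68 and -1.36 in the same order of groups. For AURKB siUHRF1-1 alone was within the 2 control arrays, TSA alone was already well below, and the combination left 13.8% (log2 change -2.86 ± 0.27 SE, limma, adjusted p = 0.000632).

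CDC20, which hands substrates to the APC/C at anaphase, read 3.68 and 3.66 in the control, 3.30 and 2.73 after depletion, 2.06 and 2.03 with TSA, and 0.91 and 0.26 with both. In the combination it was the only gene of the 10 with its lower level under siUHRF1-2, and it stood at 11.8% of the control (log2 change -3.08 ± 0.27 SE, limma, adjusted p = 0.000480). FOXM1, the transcription factor of the set, read 3.28 and 3.33 in the control, 3.35 and 2.85 after depletion, 2.42 and 2.55 with TSA, and 0.68 and 0.90 with both. Under UHRF1 depletion alone FOXM1 overlapped the control, and in the combination 17.5% of the control level remained (log2 change -2.52 ± 0.19 SE, limma, adjusted p = 0.000314).

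**Figure D1:**
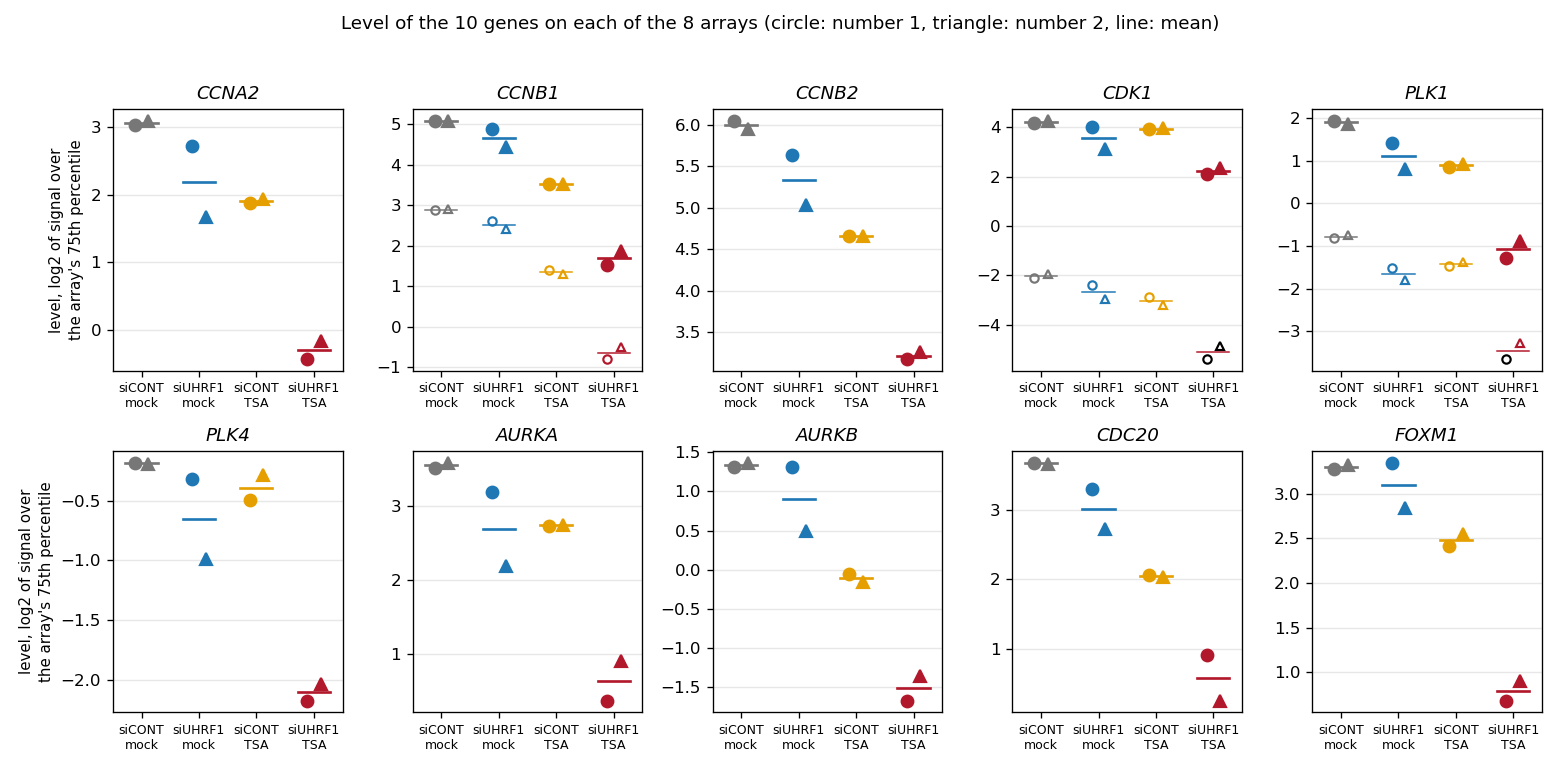
Level of each of the 10 genes on the 8 arrays, as log2 of the signal over the array's 75th percentile, with 1 panel per gene and the 4 groups along the axis. Circles are siCONT array 1 or siUHRF1-1, triangles are siCONT array 2 or siUHRF1-2, and lines are group means. Filled symbols are the brighter probe, open symbols the second probe of CCNB1, CDK1 and PLK1, and black outlines mark arrays not well above background. In every panel the 2 arrays with UHRF1 depletion plus TSA are the lowest for each probe.

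UHRF1 depletion alone, compared with siCONT under mock, gave smaller differences that did not pass the test. All 10 genes had a mean below the control, as did 59.1% of all tested probes. The log2 changes ran from -0.86 (CCNA2) to -0.21 (FOXM1) with a median of -0.65. The median of all tested probes was -0.096. None of the 10 was called by limma, with adjusted p-values from 0.0840 to 0.486, against 0.987% of all probes called lower. At an unadjusted p under 0.05 limma gave 5 of the 10 (CCNA2, CCNB2, PLK1, AURKA and CDC20), against 30.7% of all probes in either direction, and the methods' t-test gave 0, against 19.6%. Counted as 1 sample, the siCONT arrays left 0 called, 0 had an unadjusted p under 0.05 and 0% of all probes were called lower. For 8 genes, all but AURKB and FOXM1, both siRNAs lay below both controls, as they did for 39.3% of all tested probes. The second PLK1 probe had an adjusted p of 0.0365 with a change of -0.87 ± 0.17 SE, which is under 2-fold.

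The 2 siRNAs differed here in the same way for every gene. Under mock all 10 genes were lower with siUHRF1-2 than with siUHRF1-1. Each siRNA is 1 array here, and the share of all probes with this order was not counted. Against the mean of the controls the changes ran from -0.49 to 0.044 with siUHRF1-1 (median -0.27) and from -1.39 to -0.46 with siUHRF1-2 (median -0.95). Without the siUHRF1-1 array the median of all tested probes was -0.060, and without the siUHRF1-2 array it was -0.077. Under TSA the order was not kept, since 1 of the 10 genes, CDC20, was lower with siUHRF1-2. There the changes against siCONT with TSA ran from -2.36 to -1.13 with siUHRF1-1 and from -2.06 to -1.25 with siUHRF1-2. The median SD between siRNAs was 0.45 under mock and 0.21 under TSA, a difference that was not tested.

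TSA alone, compared with mock in siCONT cells, lowered 6 of the 10 genes, where 8.22% of all tested probes were called lower. CDC20 fell most (log2 change -1.62 ± 0.27 SE, limma, adjusted p = 0.00604), followed by CCNB1 (-1.55 ± 0.19 SE, adjusted p = 0.00245), AURKB (-1.44 ± 0.27 SE, adjusted p = 0.00948) and CCNB2 (-1.34 ± 0.20 SE, adjusted p = 0.00457). CCNA2 and PLK1 fell by 1.15 and 1.01, while the dimmer PLK1 probe had -0.64 (adjusted p = 0.0287), under 2-fold. These 6 include all 3 cyclins and the APC/C activator that acts on them. FOXM1 had an adjusted p of 0.0186 but a change of -0.82, under 2-fold. AURKA (-0.81, adjusted p = 0.103), CDK1 and PLK4 (-0.20, adjusted p = 0.50) were not called. In all 10 genes both TSA arrays lay below both mock arrays, as for 49.8% of all tested probes, and the median change was -1.08 against -0.11 over all probes.

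How firmly TSA alone can be read depends on the control arrays. When these count as 1 sample, neither group compared here adds to the spread, which is that between the 2 siRNAs against UHRF1. Calls lost in that fit therefore do not measure a spread of the arrays with TSA alone or of their controls. With the siCONT arrays as 1 sample none of the 10 genes was called (limma, adjusted p from 0.12 to 0.81) and 0.297% of all probes were called lower. In that fit 4 genes (CCNB1, CCNB2, AURKB and CDC20) had an unadjusted p under 0.05, against 20.4% of all probes. With 1 of the 4 siCONT arrays left out, fewer genes were called, and the median change of the 10 lay between -1.11 and -1.04. With the same 2-fold minimum the methods' t-test gave 6 genes, and at an unadjusted p under 0.05 alone it gave 9, against 62.4% of all probes.

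Adding UHRF1 depletion to TSA, that is UHRF1 depletion with TSA against siCONT with TSA, lowered all 10 genes, against 2.87% of all tested probes. The log2 changes ran from -2.19 (CCNA2) to -1.41 (AURKB) with a median of -1.72, and the median of all probes was 7e-04. CCNA2, AURKA (-2.10) and PLK1 (-1.97) had the lowest values, and CCNB2 (-1.44), CDC20 (-1.46) and AURKB were nearest to 0. Adjusted p-values by limma lay between 0.00525 and 0.0222. In the fit of 6 samples they lay between 0.113 and 0.255, 0 of the 10 were called and 0.0168% of all probes were called lower, and all 10 had an unadjusted p under 0.05, as 13.8% of all probes did in either direction. Without 1 of the siCONT arrays with TSA, or the siUHRF1-1 array with TSA, fewer genes were called. The median of the 10 genes was then -1.79 or -1.67 (siCONT) and -1.65 (siUHRF1-1). Both depleted arrays lay below both siCONT arrays in all 10 genes and in 34.5% of all tested probes.

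Adding TSA to UHRF1 depletion, that is TSA against mock in depleted cells, also lowered all 10 genes, against 9.01% of all tested probes. CCNB1 fell most (-2.95 ± 0.19 SE, limma, adjusted p = 0.000274), and CCNA2 (-2.48), CDC20 (-2.43), AURKB (-2.42) and FOXM1 (-2.31) followed. The values nearest to 0 were those of CDK1 (-1.35 ± 0.28 SE, adjusted p = 0.0119) and PLK4 (-1.45 ± 0.23 SE, adjusted p = 0.00438). With the siCONT arrays as 1 sample 9 of 10 passed, against 7.56% of all probes called lower, and CDK1 did not (adjusted p = 0.0542). Both TSA arrays lay below both mock arrays for all 10 genes and for 34.6% of all tested probes. These 5 comparisons share groups of arrays, so their values are not independent of each other.

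**Figure D2:**
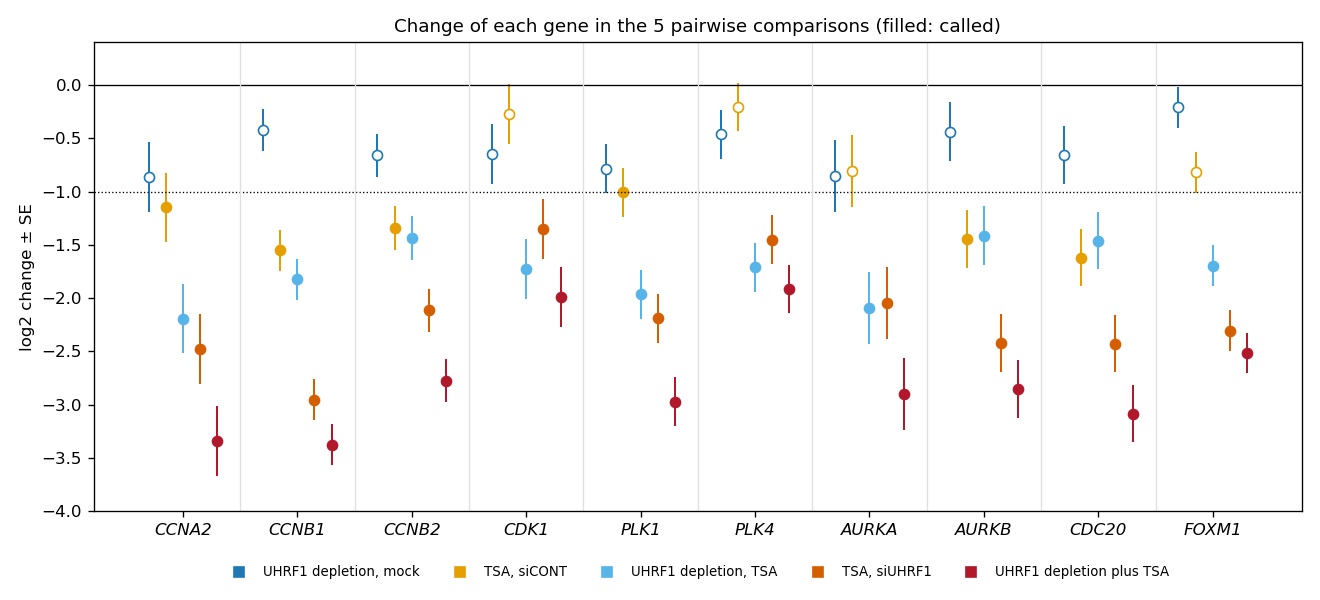
Log2 change of each of the 10 genes (brighter probe) in the 5 comparisons of 2 groups, with SE from limma as bars. Filled symbols were called (adjusted p under 0.05 and at least 2-fold, dotted line), open symbols were not. UHRF1 depletion under mock has no filled symbol, TSA in siCONT cells has 6, and the other comparisons have 10 each, with UHRF1 depletion plus TSA reaching -3.38 for CCNB1.

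The interaction asks whether the combination differed from the sum of the 2 single changes, that is whether TSA lowered a gene more in depleted than in siCONT cells. For all 10 genes it was negative, as for 46.2% of all tested probes. The values ran from -1.49 (FOXM1) to -0.78 (CCNB2) with a median of -1.21, while the median of all tested probes was 0.062. FOXM1 (-1.49 ± 0.27 SE, limma, adjusted p = 0.0372) and CCNB1 (-1.40 ± 0.28 SE, adjusted p = 0.0440) were called, where 2.07% of all probes were called lower. A replicate block fits 1 shared shift between arrays numbered 1 and 2 in all 4 groups. With it the adjusted p-values of FOXM1 and CCNB1 by limma were 0.0645 and 0.0728, and neither was called. For FOXM1 the single changes sum to -1.03 and the combination gave -2.52. For PLK4, the sum was -0.67 and the combination -1.92, with an adjusted p of 0.0735. The second probe of CCNB1 (-1.61, adjusted p = 0.0215) and that of PLK1 (-1.18, adjusted p = 0.0472, with 1 array of the combination not well above background) passed as well, while the brighter PLK1 probe had the same value of -1.18 with an adjusted p of 0.0837.

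Both siRNAs gave a negative interaction in all 10 genes, from -2.0 to -0.76 with siUHRF1-1 and from -1.13 to -0.40 with siUHRF1-2. The values of the 2 siRNAs are set against the same siCONT arrays and are not independent. The share of all probes negative for both was not counted. AURKA had the widest gap between siRNAs, -2.0 against -0.48, and CDC20 the narrowest, -0.76 against -0.85. None of the 10 genes was called with the siCONT arrays as 1 sample (adjusted p from 0.488 to 0.724), 0% of all probes were called, and CCNB1 and FOXM1 had an unadjusted p under 0.05, as did 8.84% of all probes. The calls depended on the array left out, for these genes and over all tested probes. Without the siUHRF1-2 array with mock the median interaction of the 10 genes was -1.55 (0.080 over all probes). Without the siUHRF1-1 array with mock it was -0.77 (0.041 over all probes).

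**Figure D3:**
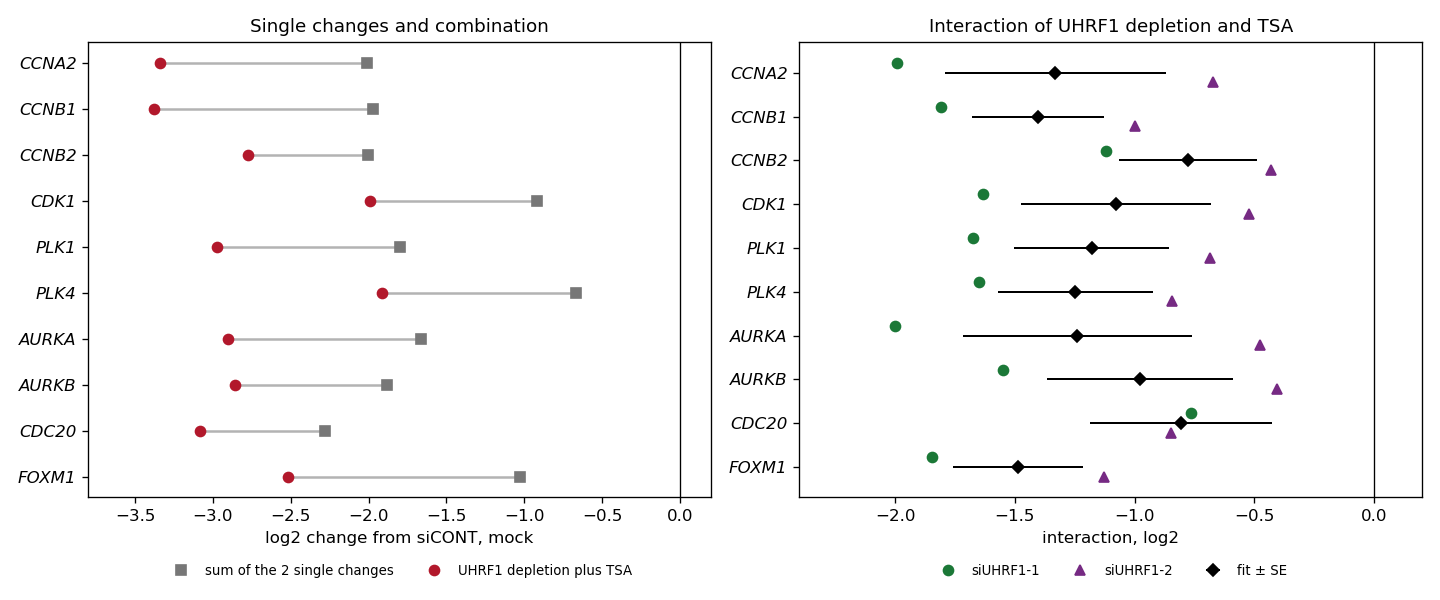
Left, the sum of the log2 changes of UHRF1 depletion alone and TSA alone (squares) beside the change of UHRF1 depletion plus TSA (circles), both against siCONT with mock. Right, the interaction with its SE (diamonds) and the value from each siRNA (circles siUHRF1-1, triangles siUHRF1-2). In the left panel each circle lies to the left of its square, at the lower value. All interactions are below 0, from -1.49 for FOXM1 to -0.78 for CCNB2.

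The 10 genes followed a common profile over the 8 arrays to different degrees. After each probe was centred on its own mean, the mean profile of the 10 was 1.09 and 1.11 in the control, 0.86 and 0.14 after depletion, 0.058 and 0.097 with TSA, and -1.77 and -1.58 with both. PLK1 lay nearest to that profile (root mean square difference 0.12) and CDK1 (0.40) and PLK4 (0.39) farthest from it. CDK1, PLK4, CCNB1 (0.34), CDC20 (0.32), CCNA2 (0.229) and AURKB (0.221) lay farther from it than PRC1 (0.210), ranked 20 among the other genes. Among 19889 other probes above background on all arrays, the 8 nearest were those of HMGB2 (0.089), BUB1 (0.11), UBE2C (0.12), CDCA8 (0.15), TRIP13 (0.16) and MTHFD1L (0.16) and 2 probes without a gene symbol. HMGB2 is a chromatin protein, BUB1 a spindle checkpoint kinase, UBE2C a ubiquitin-conjugating enzyme of the APC/C, CDCA8 a partner of AURKB, and MTHFD1L a mitochondrial folate enzyme. Of the 50 nearest genes 20 stand in the lists of mitotic regulators described next, which hold 70 genes, where 19889 probes were candidates.

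These lists hold 70 further genes of mitosis in 5 groups, all tested in every comparison. For UHRF1 depletion plus TSA 48 of the 70 were called lower, where 11.1% of all probes were, and none higher, with a median of -1.70 against -0.14 over all probes. Counting the siCONT arrays as 1 sample gave 38, against 5.69% of all probes. For UHRF1 depletion alone limma called 0 of the 70 (28 at an unadjusted p under 0.05, against 30.7% of all probes, median -0.39). The methods' t-test called 0 of the 70 and 0 of all probes after adjustment, and had 9 of the 70 at an unadjusted p under 0.05, against 19.6% of all probes. TSA alone lowered 18 (8.22% of all probes), UHRF1 depletion under TSA 35 (2.87%) and TSA in depleted cells 44 (9.01%), and 7 had a negative interaction that passed (2.07%). With the siCONT arrays as 1 sample these counts were 0, 0, 41 and 0, and 17, 41, 50 and 12 of the 70 had an unadjusted p under 0.05, where 20.4%, 13.8%, 35.7% and 8.84% of all probes did.

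The groups differed in how many of their genes fell in the combination. Of 11 genes in the list named CDK1 control, 8 fell (median -2.15), led by GTSE1 (-2.72) and CDC25C (-2.64). CDC25C is the phosphatase that activates CDK1 at mitotic entry. CDC25B had -0.59 (limma, adjusted p = 0.0501). Of 10 partners of the Aurora and Polo-like kinases, 8 fell (median -1.79), led by the chromosomal passenger proteins CDCA8 (-2.54) and INCENP (-2.34), which hold AURKB at the centromere. The centriole protein CENPJ had -0.79, under 2-fold. Of 19 genes of the APC/C and anaphase, 9 fell (median -0.92), led by UBE2C (-2.85) and the checkpoint protein MAD2L1 (-2.65), and the APC/C subunit CDC26 stood at 0.26 (adjusted p = 0.147). In each of these 3 groups 7 genes were called with the siCONT arrays as 1 sample.

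All 20 other mitotic genes fell (median -2.29), from the kinesins KIF20A (-3.75) and KIF2C (-3.29) to ECT2 (-1.3), a regulator of cytokinesis, and 15 of the 20 with the siCONT arrays as 1 sample, without ECT2 among others (adjusted p = 0.208). Of the 10 MuvB and pocket protein genes 3 fell, LIN9 (-2.10), RBL1 (-1.53) and MYBL2 (-1.25), with LIN52 at -0.18 (adjusted p = 0.614) and a median of -0.88. MYBL2 was not called with the siCONT arrays as 1 sample (adjusted p = 0.0616). Replication genes of S phase also fell in 16 of 18 cases (median -1.64), led by TYMS, thymidylate synthase (-3.35), and the helicase subunit MCM7 (-2.15), with CDT1 at -0.37, under 2-fold, and 12 of the 18 fell with the siCONT arrays as 1 sample. The medians were not tested against each other.

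Relatives of the 10 genes in the same protein families did not follow a common direction. Of 16, 14 were tested, 3 fell and 3 rose in the combination. CCNF (-2.14), CDK2 (-1.84) and CDK4 (-1.10) fell. The meiotic cyclin CCNB3 and the D cyclin CCND2 were not well above background in siCONT cells with mock and rose by at least 6.17-fold and at least 3.04-fold, and CCND3 rose by 1.10 on the log2 scale. In the fit of 6 samples CDK4 and CCND3 were not called (adjusted p = 0.0526 and 0.0814). CCNA1 and AURKC were not well above background on both arrays of either group compared, and were not tested. CCNB3 read -1.18 and -1.31 with TSA alone and -0.59 and -0.95 in the combination. Its change with the combination thus went the other way from those of CCNB1 and CCNB2.

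Genes of CDK inhibitors, the proteins that block cyclin-CDK complexes, moved in both directions. CDKN1A, which encodes p21, read -2.99 and -2.54 in the control, -2.43 and -4.90 after depletion, -3.05 and -2.93 with TSA, and -0.98 and -1.83 with both. Its highest arrays were those of the combination, but the siRNAs differed widely under mock. The change of 1.36 ± 0.76 SE with the combination did not pass (limma, adjusted p = 0.185). CDKN1A was well above background on only 6 arrays. Neither mock group had both arrays well above background, so its change with depletion alone was not tested. The size of its gap between siRNAs under mock is uncertain for that reason. CDKN2B, which encodes p15, was not well above background in the control and rose by at least 3.76-fold (adjusted p = 0.0144), and CDKN2D (-1.47) and CDKN1B (-1.14) fell. With siCONT as 1 sample all 3 calls were lost (adjusted p = 0.0732, 0.0889 and 0.0576).

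**Figure D4:**
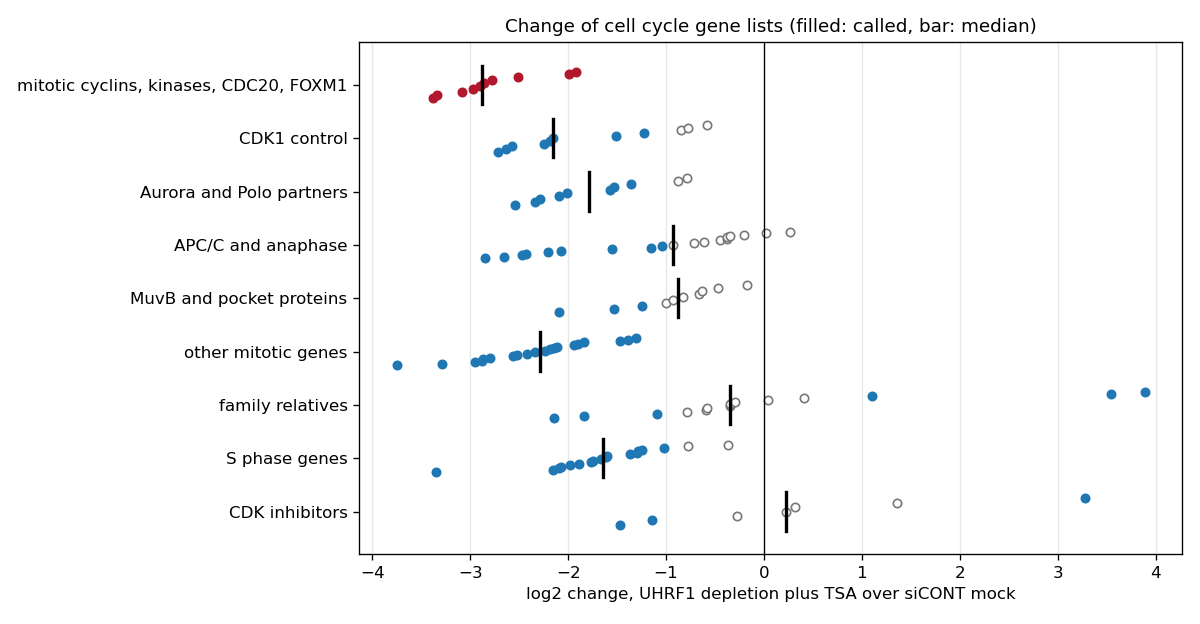
Log2 change of the combination from the control (siCONT, mock) for each tested gene of 9 lists, with filled symbols for genes called and open symbols for genes not called. Black bars are list medians, from -2.88 for the 10 mitotic genes to 0.22 for the CDK inhibitors. For genes not above background in the control, such as CCNB3, the plotted change is the fitted one and not a bound.

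Markers of the cell type and of other cells were read on the same arrays. All 10 colon epithelial markers were well above background on every array, and in the combination LGALS4 fell (-1.96), VIL1 had -1.08 (adjusted p = 0.0541) and KRT20 rose (1.56, adjusted p = 0.0158, and 0.0956 with the siCONT arrays as 1 sample). Of 10 markers of blood, endothelial and stromal cells 2 were above background in siCONT cells with mock, 3 after depletion, 4 with TSA and 5 with both, and their summed level over the 75th percentile was 1.62 to 1.78, 1.73 to 1.79, 2.73 to 2.80 and 5.61 to 7.04. VWF, COL1A1 and DES rose in the combination, by at least 15.0-fold, at least 6.66-fold and 1.41 on the log2 scale, while PTPRC, CD3E, PECAM1, COL1A2 and COL3A1 were not well above background on both arrays of either group compared. DES was not called with the siCONT arrays as 1 sample (adjusted p = 0.0527). CD68 had 1.51 (adjusted p = 0.122). Their part in the decrease of the mitotic genes was not tested.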

How the data were processed

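RNA of DLD1 cells in 4 groups of 2 samples was hybridised to 8 arrays on 1 slide, scanned once. The authors deposited 1 Agilent Feature Extraction table per array, not yet normalized between arrays, and the processed signal in it, an intensity with the background already subtracted by that software, was used here. The deposited value table of the series holds the same intensity and served as an alternative. Probe coordinates are those the file headers and columns give (hg19).

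Control spots and outlier spots were left out, the 10 spots of a repeated probe were averaged, and each array was scaled as log2(intensity) minus the log2 of its 75th percentile over non-control probes. RefSeq accessions named 28392 of 50599 probes (56.1%), and the others kept the name in the file. Tests covered probes that both arrays of 1 or more of the groups compared read well above background, and 24591 probes were fitted. Group means were compared in R 4.3.3 by limma 3.58.1 (linear models with eBayes over all 8 arrays, residual degrees of freedom 4, Benjamini-Hochberg adjustment over all tested probes). A call needs an adjusted p under 0.05 and at least 2-fold. The procedure was tested on simulated data. The study's methods name t tests, which were run as an alternative.

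The labels do not say that arrays came from separate cultures. The p-values thus measure the spread between these samples, which may be technical, and the number of arrays limits the precision. All 4 groups share 1 estimate of the spread per probe, so a comparison of siCONT arrays also carries the spread between the 2 siRNAs. Each gene was represented by its brightest probe (mean of the 8 arrays). A bound ("at least N-fold") sets the mean of the brighter group against, on each dim array, the higher of the probe's own level and the lowest level among probes well above background. The named genes are the 10 mitotic genes, UHRF1, the lowest 2 and highest 1 of each gene list in the combination, the 8 nearest in profile, and genes counted in groups of 5 or fewer, which were chosen after their values were seen. The lists are CDK1 control, Aurora and Polo partners, APC/C and anaphase, MuvB and pocket proteins, other mitotic genes, S phase genes, family relatives, CDK inhibitors, colon epithelium and other cell types. The mitotic genes and all lists were chosen with earlier results of these data known. The result of 1 marker of the last list is not reported here.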

Additional observations from a re-analysis of the deposited data

Results flagged for a closer look

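The interaction term of limma, the difference in the change with TSA between UHRF1-depleted and siCONT cells, was called for 2 of the 10 mitotic genes. Of all tested probes 2.07% were called lower. The term was negative for all 10 genes, as for 46.2% of all tested probes. For FOXM1 the difference was -1.49 on the log2 scale (adjusted p = 0.0372) and for CCNB1 -1.40 (adjusted p = 0.0440). Both siRNAs gave a negative value in each gene, but against the same siCONT arrays, so the 2 values are not independent. With the siCONT arrays as 1 sample the adjusted p-values were 0.488 and 0.511, and with the replicate block 0.0645 and 0.0728.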

How the results depend on the processing

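For the 10 mitotic genes 1119 of 1240 single changes under an alternative kept their direction and their side of the threshold, 108 lost the call, 12 gained one and 1 turned its sign (FOXM1 under mock, -0.46 to 0.044 when 1 array was left out, the latter without siUHRF1-2). For UHRF1 depletion plus TSA the median of the 10 genes lay between -2.92 and -2.72 under leave-one-out. Counting the siCONT arrays as 1 sample gave 0 genes for TSA in siCONT cells, for UHRF1 depletion under TSA and for the interaction, 0 further mitotic regulators in the same 3 comparisons, and UHRF1 itself lost its call at -1.83 and -2.87. The methods' t-test after adjustment gave 0 of the 10 genes and 0 of the 70 regulators in both comparisons of depleted cells with TSA (against siCONT with TSA and against mock), where it called 0 of all probes. It was not computed for the interaction.

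Replicate numbers did not pair the arrays (correlation of deviations -0.056 to 0.074), except for the same siRNA under mock and TSA (0.34). With the replicate block, or the block within each siRNA arm, the interaction was called for 0 of the 10 genes, and for 3 and 0 of the 70 regulators. The first block left 269 of all probes called lower and 406 higher, and the second left 0 of all probes called. Without the filter on dim probes both counts were 0, and with probes above background on every array alone 11 regulators passed. Counts of regulators here are of calls in either direction. Without a fold minimum 4 regulators were called for UHRF1 depletion under mock (3 lower and TFDP1 higher, against 3.69% and 4.89% of all probes) and 35 for TSA in siCONT cells (all lower, against 23.0% of all probes).

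Leaving out 1 array at a time gave 0 to 4 of the 10 genes for UHRF1 depletion under mock, 3 to 6 for TSA in siCONT cells, 3 to 10 for UHRF1 depletion under TSA, 9 to 10 for TSA in depleted cells and 0 to 9 for the interaction. For the 70 regulators the ranges were 0 to 11, 9 to 18, 6 to 36, 40 to 50 and 0 to 30, and 44 to 48 for the combination. A lone array was then assumed to vary like the other groups. Calls over all tested probes also varied with the array left out, so these ranges do not describe the mitotic genes alone. The causes were not tested. In the combination 49.4% (normexp), 41.1% (probes above background on all arrays) and 72.0% (75th percentile over detected probes) of all calls were higher.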
